A study of Heliconius erato cyrbia and Heliconius erato demophoon with 32 samples.

Results

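The interaction of subspecies and pupal stage was measured in wing RNA of Heliconius erato, a butterfly whose subspecies differ in wing colour. It asks whether the change of a locus between 50% and 70% of pupal development differed between the iridescent blue subspecies H. e. cyrbia and the non-iridescent H. e. demophoon. All 16 animals and all 32 libraries of the series were used. Each animal gave 1 library of the anterior hindwing (the androconial region, with its own type of scale) and 1 library of the rest of both wings (the main wing), and the counts of both were summed per animal. The animals fell into 4 groups of 4, cyrbia at 70% (animals 9 to 12), cyrbia at 50% (animals 1 to 4), demophoon at 70% (animals 13 to 16) and demophoon at 50% (animals 5 to 8). All came from captive stocks kept at 25°C on Passiflora biflora, and no group carried a treatment or a mutation. The labels gave 4 males for cyrbia at 70%, 2 males and 2 females for cyrbia at 50%, and 1 male and 3 females for demophoon at each stage, so that cyrbia at 70% had no female.

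A butterfly scale is the outgrowth of a single epidermal cell. In the middle of pupal life parallel actin bundles run along the growing scale and prefigure its longitudinal ridges, and later the cuticle of the ridges and laminae hardens and pigment is laid down. In iridescent Heliconius the blue comes from light reflected by the layered ridges, so that the sampled stages span the time at which the reflecting structure is built. In bulk wing tissue fewer cells of a type and less RNA per cell cannot be told apart. The files pair no locus with a gene name, so that the function of the loci and the markers of wing tissue were not analysed here. A locus is called annotated where its assembly ID (MSTRG and a number) comes with the ID of a reference gene model, and unannotated where it does not.

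The summed counts ran from 43356470 (animal 11, cyrbia at 70%) to 101972164 (animal 14, demophoon at 70%) per animal. The main wing supplied 19.9% (animal 6, demophoon at 50%) to 67.6% (animal 15, demophoon at 70%) of an animal's counts, with group means of 49.4% ± 18.5 in cyrbia at 70%, 48.2% ± 5.21 in cyrbia at 50%, 42.6% ± 16.8 in demophoon at 70% and 41.6% ± 15.1 in demophoon at 50% (SD, n = 4 each). A summed level is thus weighted by the depth of each region. Multidimensional scaling placed the 4 groups apart, the stages on the first dimension (30.6% of variance) and the subspecies on the second (16.1%). Library numbers in the labels follow stage, 70% before 50%, so that an effect of library order on a stage change cannot be told apart from stage.

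In the test of the interaction, a positive log2 value means that the 70% over 50% change was larger (more positive) in cyrbia. Of 18261 loci tested, 24 (0.131%) had an interaction at a false discovery rate (FDR) below 0.05 in edgeR's quasi-likelihood test, 10 positive and 14 negative. At an unadjusted p below 0.05 there were 2014 (11%), and 57 loci had an FDR between 0.05 and 0.1. The positive interactions ran from 1.23 to 7.86 (median 2.12) and the negative ones from −1.50 to −12.19 (median −5.33) on the log2 scale. The median standard error (SE) over all loci tested was 0.80, and the median absolute interaction 0.55. Each SE here is the absolute log2 value divided by the square root of the edgeR F statistic, not an output of the fit. Where a group had no counts, the log2 value depends on the prior count of the fit, and its SE does too. Annotated loci made up 12 of the 24 (50%), beside 53.9% of the loci tested. The calls lay on 15 of 21 chromosomes, with 1 locus not placed. The FDR is the p-value adjusted over all loci tested by the method of Benjamini and Hochberg.

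Within each subspecies the change with stage was large. In cyrbia 4565 loci (25%) differed between stages, 2317 higher and 2248 lower at 70%, and in demophoon 4708 loci (25.8%) did, 2618 higher and 2090 lower. Subspecies differed at 2379 loci at 70% (13%; 959 higher and 1420 lower in cyrbia) and at 2424 loci at 50% (13.3%; 1106 higher and 1318 lower in cyrbia). Both stage changes were called for 3137 loci, 68.7% of the cyrbia calls and 66.6% of the demophoon calls, and 3120 of these moved in the same direction. Across loci the 2 stage changes had a Pearson r of 0.644 over 18261 loci and of 0.793 over the 11302 loci with a mean above 1 CPM (the unit of level used here, a count divided by the size of the animal's TMM-normalised summed library). These are descriptions across loci of the same 16 animals. Of the loci tested, 71.6% had the same sign of stage change in both subspecies.

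**Figure D1:**
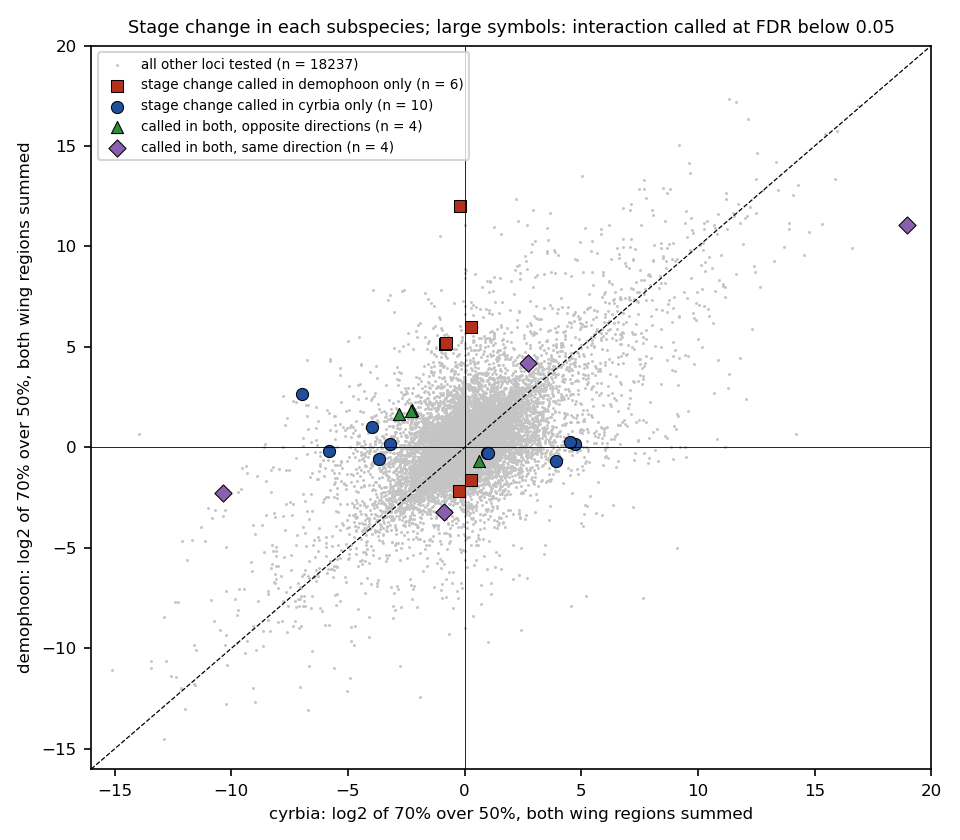
Stage change of each of 18261 loci in cyrbia (x axis) and demophoon (y axis), both as log2 of 70% over 50%, wing regions summed; the dashed line marks equal change and large symbols mark the 24 interaction calls by class. The 10 loci called between stages in cyrbia only spread along the horizontal axis, the 6 of demophoon only along the vertical axis, and the 4 with opposite directions lie in the upper left (3) and lower right (1).

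Sorted by the stage changes themselves, the 24 loci fell into 4 kinds. In 10 the stage change was called in cyrbia only (of 1428 such loci), in 6 in demophoon only (of 1571), in 4 in both with opposite directions (of 17) and in 4 in both in the same direction by different amounts (of 3120). Sorted by the difference between subspecies, 10 of the 24 differed at 50% only, 6 at 70% only and 8 at both stages. In 23 of the 24 loci at least 1 group lay wholly above or wholly below the other 12 animals. Cyrbia at 70% lay above the other animals in 4 loci and below them in 2, cyrbia at 50% above in 5 and below in 4, demophoon at 70% above in 4, and demophoon at 50% above in 5 and below in 4, where a locus may count under more than 1 group. The loci were selected by the test on these same values (0.131% of loci called), so this separation is a description only. The share of all loci tested with a group so placed was not counted, so the 23 of 24 cannot be read against it.

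Of the 6 loci whose stage change was called in demophoon only, 4 were higher at 70% and 2 lower. MSTRG.21177 on chromosome 20 (gene model Herato2001.575) had 1.45, 1.19, 1.80 and 0.202 CPM in cyrbia at 70% and 1.72, 2.29, 2.75 and 1.44 CPM in cyrbia at 50%, against 227, 125, 149 and 289 CPM in demophoon at 70% and 2.67, 9.40, 2.66 and 7.49 CPM in demophoon at 50%. Every demophoon animal at 70% was thus at least 124.8 CPM and no other animal exceeded 9.40 CPM, while the 2 subspecies overlapped at 50%. The mean in demophoon at 70% was 35.5 times that at 50%, whereas the cyrbia ratio was 0.566, and the interaction was −5.99 (SE 0.81, edgeR FDR 0.0154). Its stage change was 5.15 in demophoon (SE 0.62, edgeR FDR 2.38e-05) and −0.83 in cyrbia (SE 0.55, edgeR FDR 0.31). This call held when any single animal was left out and ended in the anterior hindwing alone (−5.52, edgeR FDR 0.0668). The adjacent unannotated locus MSTRG.21176, named after its values were seen, had the same order of groups at a lower level, with 0.417, 0.176, 0.235 and 0.0539 CPM in cyrbia at 70% and 0.168, 0.347, 0.816 and 0.175 CPM in cyrbia at 50%, against 20.1, 13.6, 15.7 and 81.5 CPM in demophoon at 70% and 0.629, 1.02, 1.00 and 0.937 CPM in demophoon at 50% (interaction −5.98, SE 1.00, edgeR FDR 0.0292). Reads of neighbouring loci may have been shared between them, so that this pair need not be independent. The call of MSTRG.21176 ended without animal 3, 5, 6, 7, 8, 10, 11, 12 or 13 (edgeR FDR 0.054 to 0.0796).

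The unannotated MSTRG.12358 on chromosome 12 had no count in any demophoon animal at 50%. It had 4, 9, 1 and 21 counts in cyrbia at 70% and 14, 12, 9 and 13 counts in cyrbia at 50%, against 859, 1044, 333 and 25 counts in demophoon at 70%. Cyrbia averaged 0.130 ± 0.114 CPM at 70% and 0.151 ± 0.0264 CPM at 50%, and demophoon at 70% 6.87 ± 6.09 CPM (SD, n = 4 each), so that demophoon spread widely and animal 16 stood close to the cyrbia animals. On the means, demophoon at 70% was at least 164-fold higher than at 50%, taking 3 counts per animal as the limit that a count of 0 allows, beside a ratio of 0.865 in cyrbia. The fitted interaction of −12.19 (SE 1.77, edgeR FDR 0.027) depends on the prior count of the fit and is not a bound. The call ended without animal 6, 7, 9, 10, 11 or 13 (edgeR FDR 0.053 to 0.0717). The last negative locus of this class, the unannotated MSTRG.391 on chromosome 1 (named after its values were seen), was likewise at 0 in every demophoon animal at 50%. It had 153, 148, 83 and 156 counts in cyrbia at 70% and 144, 103, 126 and 215 counts in cyrbia at 50%, against 12, 9, 4 and 7 counts in demophoon at 70%. The subspecies differed at both stages, cyrbia being 21.6-fold higher at 70% and at least 44-fold higher at 50%, and the interaction of −5.68 (SE 0.89, edgeR FDR 0.0343, a fitted value that depends on the prior count) rests on the few demophoon counts at 70%. That call ended without any one of animals 1, 3 to 14 (edgeR FDR 0.0502 to 0.077), with sex as a covariate (edgeR FDR 0.0802) and in either region alone, and the value was −3.53 in the anterior hindwing (edgeR FDR 0.339) and −2.21 with limma-voom (FDR 0.582).

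In the other direction, 2 adjacent loci on chromosome 11 were highest in demophoon at 50%. MSTRG.11314 (gene model Herato1108.612) had 44.0, 28.7, 29.3 and 26.2 CPM in cyrbia at 70% and 43.2, 43.0, 29.9 and 35.2 CPM in cyrbia at 50%, against 29.6, 20.8, 21.4 and 19.4 CPM in demophoon at 70% and 72.6, 111, 131 and 91.4 CPM in demophoon at 50%. All 4 demophoon animals at 50% exceeded the other 12, and the 2 subspecies overlapped at 70%. The demophoon stage change was −2.16 (SE 0.23, edgeR FDR 5.69e-06) and that in cyrbia −0.24 (SE 0.22, edgeR FDR 0.49), with an interaction of 1.92 (SE 0.31, edgeR FDR 0.027). The unannotated neighbour MSTRG.11315 had 44.2, 45.3, 31.2 and 30.5 CPM in cyrbia at 70% and 26.6, 39.0, 30.7 and 27.8 CPM in cyrbia at 50%, against 32.9, 18.7, 21.8 and 17.2 CPM in demophoon at 70% and 51.4, 73.7, 81.6 and 74.4 CPM in demophoon at 50%. Its interaction was also 1.92 (SE 0.32, edgeR FDR 0.0292), and demophoon at 50% again lay above all other animals. With adjacent loci, shared reads cannot be told apart from separate transcripts here. The call of MSTRG.11314 ended without animal 6, 7, 11, 14 or 15 (edgeR FDR 0.055 to 0.0717) and that of MSTRG.11315 without animal 1, 3, 6, 7, 8, 9, 10, 11, 14 or 15 (edgeR FDR 0.0504 to 0.073).

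Among the loci whose stage change was called in cyrbia only, MSTRG.11850 on chromosome 12 (unannotated) had counts almost only in cyrbia at 50%. It had 2, 1, 1 and 2 counts in cyrbia at 70% and 212, 263, 358 and 222 counts in cyrbia at 50% (3.32 ± 0.847 CPM, SD, n = 4), against 1, 1, 1 and 0 counts in demophoon at 70% and 0 counts in each demophoon animal at 50%. The level in cyrbia at 70% was 0.0076 times that at 50%, with an exact 95% interval for counting error of 0.00278 to 0.0166, and cyrbia at 50% was at least 79.3-fold higher than demophoon at 50%. With demophoon near 0 at both stages, its own stage change could not be judged at this depth. The interaction was −9.62 (SE 1.13, edgeR FDR 0.0154, a fitted value that depends on the prior count) and held when any single animal was left out. The call ended in the main wing alone (−7.29, edgeR FDR 0.254) and when the deeper library of each animal was thinned to the other (edgeR FDR 0.0515). MSTRG.15489 on chromosome 15, also unannotated, had the same form, with 3, 3, 2 and 4 counts in cyrbia at 70% and 127, 207, 343 and 248 counts in cyrbia at 50%, against 6, 16, 1 and 15 in demophoon at 70% and 13, 5, 12 and 11 in demophoon at 50%. All 4 cyrbia animals at 50% were above the other 12. The cyrbia level at 70% was 0.0173 times that at 50% (exact 95% interval for counting error 0.00893 to 0.0304) and the interaction −5.66 (SE 0.91, edgeR FDR 0.027). Without animal 3, 5, 6, 7, 8, 9, 10, 11, 12 or 13 its call ended (edgeR FDR 0.0521 to 0.0751).

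The other 3 negative loci of this class, named after their values were seen, also fell towards 70% in cyrbia. The annotated MSTRG.22230 on the Z chromosome (gene model Herato2101.485) had 23.0, 16.2, 23.3 and 24.8 CPM in cyrbia at 70% and 256, 202, 215 and 132 CPM in cyrbia at 50%, against 6.04, 6.83, 12.9 and 17.8 CPM in demophoon at 70% and 5.05, 10.1, 8.23 and 15.4 CPM in demophoon at 50%. The lowest cyrbia animal at 50% had 132 CPM and the highest of the other 12 animals 24.8 CPM, and the interaction was −3.37 (SE 0.52, edgeR FDR 0.027). The annotated MSTRG.10901 on chromosome 11 (gene model Herato1108.327) had 2.83, 1.04, 4.51 and 1.59 CPM in cyrbia at 70% and 40.8, 37.7, 68.3 and 10.2 CPM in cyrbia at 50%, against 1.59, 2.78, 1.42 and 2.37 CPM in demophoon at 70% and 1.65, 0.836, 0.711 and 0.793 CPM in demophoon at 50% (interaction −5.00, SE 0.77, edgeR FDR 0.027). For both loci the subspecies overlapped and were not called different at 70% (edgeR FDR 0.0837 for MSTRG.22230 and 0.771 for MSTRG.10901). The unannotated MSTRG.18670 on chromosome 18 differed in kind, since the low group was cyrbia at 70%, with 0.870, 1.79, 0.706 and 1.75 CPM there and 22.4, 14.9, 7.99 and 20.0 CPM in cyrbia at 50%, against 9.24, 7.12, 5.35 and 9.75 CPM in demophoon at 70% and 10.8, 12.6, 13.7 and 9.44 CPM in demophoon at 50% (interaction −3.10, SE 0.50, edgeR FDR 0.027). These calls ended without animal 6, 7, 9, 10 or 11 for MSTRG.22230 (edgeR FDR 0.0504 to 0.0717), without animal 6 or 7 for MSTRG.10901 (0.0602 to 0.0717) and without animal 5, 6, 7, 8, 9, 11 or 13 for MSTRG.18670 (0.0517 to 0.0731). The call of MSTRG.10901 also ended in the main wing alone (edgeR FDR 0.0572), in the anterior hindwing alone (edgeR FDR 0.156) and with limma-voom (FDR 0.0634).

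The positive loci of this class were higher in cyrbia at 70% than at 50%. MSTRG.19804 on chromosome 19 (unannotated) had 1.01, 5.30, 4.30 and 1.19 CPM in cyrbia at 70% and 0.204, 0.173, 0.136 and 0.263 CPM in cyrbia at 50%, against 11.1, 7.27, 6.71 and 8.93 CPM in demophoon at 70% and 10.8, 17.8, 9.74 and 16.4 CPM in demophoon at 50%. Cyrbia at 50% was below every other animal, and cyrbia at 70% lay between it and demophoon without overlap. The interaction was 4.60 (SE 0.67, edgeR FDR 0.0237), and it stayed called whichever animal was left out but not in the main wing alone (4.26, edgeR FDR 0.0572). MSTRG.22304 on the Z chromosome (unannotated) had 46.6, 40.5, 51.0 and 55.6 CPM in cyrbia at 70% and 21.9, 22.9, 30.8 and 24.5 CPM in cyrbia at 50%, against 31.2, 27.6, 33.8 and 30.2 CPM in demophoon at 70% and 39.5, 38.8, 37.6 and 33.0 CPM in demophoon at 50%. The subspecies thus stood in opposite order at the 2 stages, cyrbia above demophoon at 70% (edgeR FDR 0.00693) and below it at 50% (edgeR FDR 0.0137), with no overlap at either. The interaction was 1.23 (SE 0.19, edgeR FDR 0.027), and its call ended without animal 6, 7, 11 or 13 (edgeR FDR 0.0556 to 0.0717).

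The other 3 positive loci, given after their values were seen, rose in cyrbia, and their stage change was not called in demophoon (edgeR FDR 0.227 to 0.846). MSTRG.5601 on chromosome 6 (gene model Herato0606.430) had 76.7, 42.9, 99.0 and 75.9 CPM in cyrbia at 70% and 1.39, 0.680, 2.10 and 6.92 CPM in cyrbia at 50%, against 5.08, 3.89, 4.88 and 3.44 CPM in demophoon at 70% and 3.99, 5.62, 2.87 and 2.64 CPM in demophoon at 50% (interaction 4.53, SE 0.76, edgeR FDR 0.0303). MSTRG.8682 on chromosome 10 (gene model Herato1001.37) had 38.2, 21.7, 71.1 and 18.1 CPM in cyrbia at 70% and 0.432, 1.23, 1.10 and 3.73 CPM in cyrbia at 50%, against 1.64, 1.20, 1.56 and 2.04 CPM in demophoon at 70% and 1.02, 1.48, 1.32 and 1.60 CPM in demophoon at 50% (interaction 4.27, SE 0.77, edgeR FDR 0.0477). In both, all 4 cyrbia animals at 70% exceeded the other 12, and animal 4 was the highest of cyrbia at 50%. MSTRG.22309, an unannotated Z locus 5 loci from MSTRG.22304, had 8.16, 9.00, 5.41 and 8.01 CPM in cyrbia at 70% and 3.69, 3.73, 4.70 and 2.98 CPM in cyrbia at 50%, against 24.5, 30.6, 27.8 and 28.4 CPM in demophoon at 70% and 33.2, 35.6, 32.0 and 35.1 CPM in demophoon at 50%. No groups overlapped here, demophoon was higher at both stages, and the interaction was 1.31 (SE 0.23, edgeR FDR 0.041). These calls ended without 11 of the 16 animals in turn for MSTRG.5601 (1, 3, 5, 6, 7, 9, 11, 12, 13, 14 and 15, edgeR FDR 0.0521 to 0.0751), without 12 for MSTRG.8682 (2, 3, 5 to 11, 13, 14 and 15, edgeR FDR 0.053 to 0.104) and without 13 for MSTRG.22309 (all but 3, 11 and 16, edgeR FDR 0.0539 to 0.104).

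**Figure D2:**
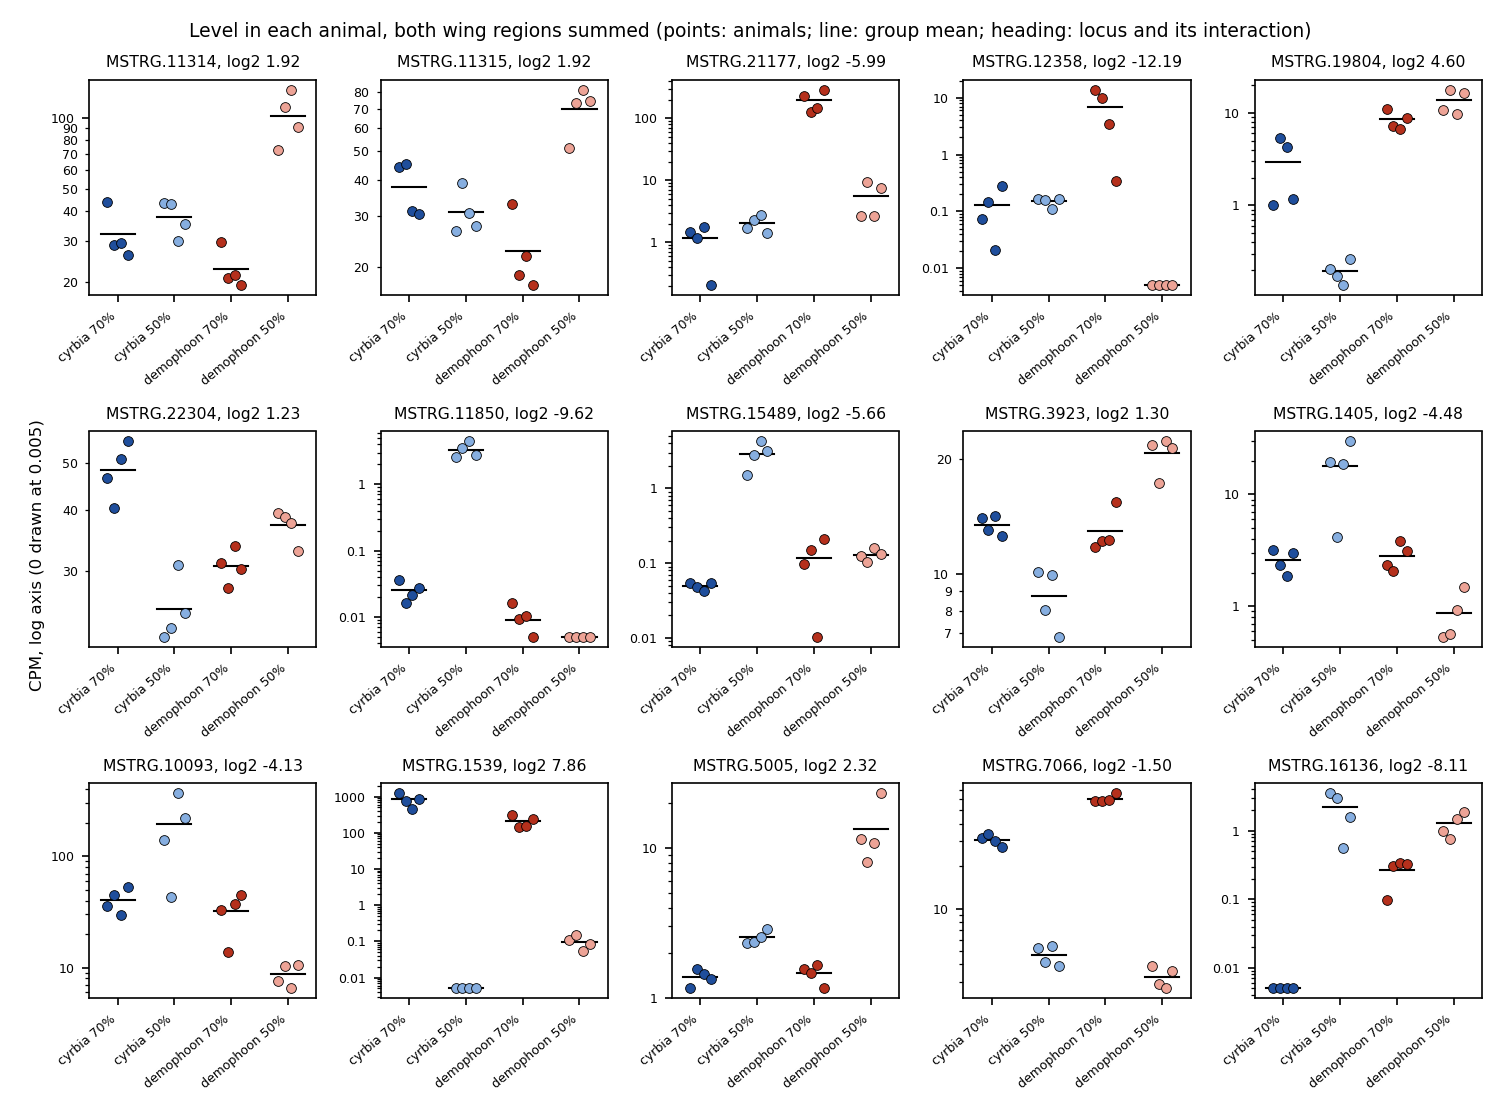
CPM of each animal (log axis, a count of 0 drawn at 0.005) for the 15 loci named by rule, in cyrbia at 70%, cyrbia at 50%, demophoon at 70% and demophoon at 50%; lines are group means and headings give the interaction on the log2 scale. In MSTRG.21177 the 4 demophoon animals at 70% stand alone at 124.8 CPM or more, and in MSTRG.11850 the 4 cyrbia animals at 50% stand alone at 2.54 CPM or more.

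In all, 17 loci changed in opposite directions in the 2 subspecies with both stage changes called, 12 lower at 70% in cyrbia and higher in demophoon and 5 the reverse. The interaction was called for 4 of them, and the other 13 had unadjusted p-values of 7.01e-05 to 0.000937 and edgeR FDRs of 0.0511 to 0.128. The interaction is the difference of the 2 stage changes by which these loci were picked, so small p-values follow from the choice. With DESeq2, which gave 596 interaction calls in all, all 17 were called. MSTRG.3923 on chromosome 5 (gene model Herato0503.269) had 14.0, 13.0, 14.2 and 12.6 CPM in cyrbia at 70% and 10.1, 8.05, 9.93 and 6.83 CPM in cyrbia at 50%, against 11.8, 12.2, 12.2 and 15.5 CPM in demophoon at 70% and 21.8, 17.3, 22.3 and 21.4 CPM in demophoon at 50%. The subspecies stood apart at 50%, with cyrbia lower, and overlapped at 70%. Its stage change was 0.62 in cyrbia (SE 0.15, edgeR FDR 0.0065) and −0.68 in demophoon (SE 0.15, edgeR FDR 0.00352), with an interaction of 1.30 (SE 0.21, edgeR FDR 0.027). The call ended without animal 5, 7, 8, 9, 10, 11, 13, 14 or 15 (edgeR FDR 0.0504 to 0.0681).

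The 3 negative loci of this kind had 1 shape, highest in cyrbia at 50%, lowest in demophoon at 50% and overlapping at 70%. MSTRG.10093 on chromosome 10 (gene model Herato1007.92) had 35.9, 45.2, 29.5 and 52.7 CPM in cyrbia at 70% and 139.6, 43.1, 372 and 220.3 CPM in cyrbia at 50%, against 32.8, 13.7, 37.2 and 44.8 CPM in demophoon at 70% and 7.54, 10.4, 6.48 and 10.5 CPM in demophoon at 50%. The subspecies differed 22.3-fold in their means at 50% and overlapped at 70% (ratio 1.27). The interaction was −4.13 (SE 0.71, edgeR FDR 0.0332). MSTRG.1405, unannotated and not placed on a chromosome, had 3.15, 2.34, 1.86 and 2.99 CPM in cyrbia at 70% and 19.5, 4.15, 18.7 and 29.8 CPM in cyrbia at 50%, against 2.33, 2.07, 3.83 and 3.09 CPM in demophoon at 70% and 0.532, 0.564, 0.935 and 1.49 CPM in demophoon at 50%. Here cyrbia was 20.5-fold higher in the means at 50% and 0.913 times demophoon at 70%, and the interaction was −4.48 (SE 0.69, edgeR FDR 0.027). The unannotated MSTRG.20396 on chromosome 20, given after its values were seen, had 9.28, 11.7, 9.84 and 13.7 CPM in cyrbia at 70% and 41.9, 14.2, 66.2 and 94.7 CPM in cyrbia at 50%, against 17.7, 7.86, 21.5 and 14.8 CPM in demophoon at 70% and 3.07, 2.32, 4.17 and 8.13 CPM in demophoon at 50% (interaction −4.08, SE 0.71, edgeR FDR 0.035). In all 3 loci animal 2, a female, was the lowest of cyrbia at 50%, and in MSTRG.10093 it lay within the range of cyrbia at 70%. The other female of that group at 50%, animal 3, was its highest animal in MSTRG.10093 and lay above animal 2 in all 3 loci. The calls of MSTRG.10093 and MSTRG.20396 each ended without 12 of the 16 animals in turn (for MSTRG.10093 animals 3 to 13 and 15, edgeR FDR 0.0512 to 0.0864, and for MSTRG.20396 animals 1, 3 to 7, 9 to 13 and 15, edgeR FDR 0.0512 to 0.0994), and that of MSTRG.1405 without animal 6, 7, 10 or 11 (edgeR FDR 0.0518 to 0.0717).

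In 4 loci the direction was shared and the size differed. MSTRG.1539 on chromosome 2 (gene model Herato0209.59) reached the highest level of the 24 loci, with 1273, 767, 444 and 880.5 CPM in cyrbia at 70% and a count of 0 in all 4 cyrbia animals at 50%, against 303, 146, 153 and 237 CPM in demophoon at 70% and 11, 7, 4 and 7 counts in demophoon at 50%. The subspecies did not overlap at 70%, where the cyrbia mean was 4.01 times that of demophoon (edgeR FDR 0.00402). Relative to 50%, cyrbia at 70% was at least 22300-fold higher and demophoon 2150-fold higher in its means. With the demophoon fold taken as measured, the cyrbia fold was at least 10.4 times that of demophoon. The counting error of the few demophoon counts at 50% is not carried into that value. The fitted interaction was 7.86 (SE 0.95, edgeR FDR 0.0154), depends on the prior count, and was called whichever animal was left out. The call ended in the main wing alone (6.13, edgeR FDR 0.245) and with limma-voom on the unsummed libraries (4.56, limma-voom FDR 0.263). MSTRG.7066 on chromosome 8 (gene model Herato0801.37) had 31.5, 33.7, 30.3 and 27.4 CPM in cyrbia at 70% and 5.27, 4.18, 5.40 and 3.90 CPM in cyrbia at 50%, against 58.3, 58.1, 59.4 and 66.5 CPM in demophoon at 70% and 3.92, 2.88, 2.70 and 3.57 CPM in demophoon at 50%. It rose 6.55-fold in cyrbia and 18.5-fold in demophoon, and at 70% every demophoon animal was above every cyrbia animal. Its interaction of −1.50 (SE 0.21, edgeR FDR 0.0154) was the smallest of the 14 negative ones and held in each fit without 1 animal. It ended without animals 6 and 9 together (−1.43, edgeR FDR 0.0832), which was added once the data had been seen.

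The other 2 loci of this class fell towards 70%. MSTRG.5005 on chromosome 3 (gene model Herato0310.214) had 1.16, 1.57, 1.45 and 1.35 CPM in cyrbia at 70% and 2.33, 2.37, 2.57 and 2.88 CPM in cyrbia at 50%, against 1.56, 1.47, 1.66 and 1.16 CPM in demophoon at 70% and 11.5, 8.09, 10.8 and 23.3 CPM in demophoon at 50%. The subspecies overlapped at 70%, while demophoon at 50% was above all other animals. The interaction was 2.32 (SE 0.40, edgeR FDR 0.0332), and the call ended without any of animals 1, 2, 3, 5, 7, 10, 11, 12, 13, 14 or 15 (edgeR FDR 0.054 to 0.071). MSTRG.16136 on chromosome 16 (gene model Herato1602.10) had a count of 0 in all 4 cyrbia animals at 70% and 298, 229, 46 and 126 counts in cyrbia at 50%, against 6, 32, 33 and 23 counts in demophoon at 70% and 103, 36, 114 and 156 counts in demophoon at 50%. Cyrbia at 70% was at least 42.4-fold lower than at 50%, and demophoon at 70% was 4.83-fold lower than at 50%. The interaction was −8.11 (SE 1.22, edgeR FDR 0.0292, a fitted value that depends on the prior count), and the call ended without any of animals 1, 5 to 12, 14 or 15 (edgeR FDR 0.0517 to 0.0751). It also ended with limma-voom (−4.40, FDR 0.0912), in the main wing alone (−6.15, edgeR FDR 0.24) and with thinned libraries (−7.54, edgeR FDR 0.0515).

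Sex was unevenly spread, with males only in cyrbia at 70%. With sex as a covariate, 15 loci had an interaction (3 positive, 12 negative), and 12 of the 24 were among them. The other 12 had edgeR FDRs of 0.0522 to 0.104, and none of the 24 changed sign. The sign is a description only, since the loci were selected on these same counts. The calls that ended were those of both chromosome 11 neighbours (edgeR FDR 0.0522 each), MSTRG.12358 and MSTRG.3923 (0.0522 each), MSTRG.10093 (0.0688), MSTRG.15489 (0.0799) and MSTRG.5005 (0.0868), and also MSTRG.5601 (0.0522), MSTRG.22309 (0.0688), MSTRG.391 (0.0802), MSTRG.21176 (0.0881) and MSTRG.8682 (0.104). By contrast MSTRG.21177, MSTRG.11850, MSTRG.1539, MSTRG.7066, MSTRG.19804, MSTRG.22304, MSTRG.1405 and MSTRG.16136 kept theirs (0.0154 to 0.0457). On the Z chromosome, of which male butterflies carry a pair and females a single copy, the locus MSTRG.22304 had 33.8 CPM in the 1 demophoon male and 27.6 to 31.2 CPM in the 3 females at 70%, and 33.0 CPM in the male and 37.6 to 39.5 CPM in the females at 50%. For MSTRG.22230 the 2 cyrbia males at 50% had 132 and 256 CPM and the 2 females 202 and 215 CPM. In cyrbia at 70%, with males only, sex and group cannot be told apart.

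The study mapped iridescence in crosses to the Z chromosome and to chromosome 20, so that these were set beside all loci. Of 689 Z loci tested, 2 had a positive and 1 a negative interaction call (0.435%), and of 958 on chromosome 20, 3 had a negative one (0.313%), beside 0.131% of all loci. Chromosome 11, which was not among those mapped, had 2 positive and 1 negative calls of 850 loci (0.353%). The chromosome 20 calls include the adjacent MSTRG.21176 and MSTRG.21177, and the Z calls include MSTRG.22304 and MSTRG.22309, 5 loci apart. Whole chromosomes were taken, not the intervals that the study mapped. The median interaction was −0.01 for Z loci and −0.01 for chromosome 20, beside −0.06 over all loci tested. Of the Z loci 12.3% were below an unadjusted p of 0.05, and of chromosome 20 loci 10.9%, beside 11% of all loci. With sex as a covariate the median of Z loci was −0.04, also −0.04 over all loci. MSTRG.21985 is the Z locus that the study's text gives by assembly ID, as differing between subspecies at the later stage. The text also names Z genes by gene name, trio among them, which could not be matched to loci here. MSTRG.21985 had 8.30, 8.87, 6.07 and 8.38 CPM in cyrbia at 70% and 5.31, 7.78, 5.34 and 5.39 CPM in cyrbia at 50%. Demophoon had 17.2, 14.8, 19.5 and 25.4 CPM at 70% and 10.3, 11.4, 12.5 and 19.0 CPM at 50%. This locus was lower in cyrbia at both stages without overlap. Its subspecies difference was called at 70% (log2 −1.28, edgeR FDR 0.0026) and at 50% (−1.16, edgeR FDR 0.00465). Its stage changes of 0.41 in cyrbia (edgeR FDR 0.216) and 0.53 in demophoon (edgeR FDR 0.103) were not called. The interaction was −0.12 (SE 0.32, edgeR FDR 0.961).

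The level of the Z chromosome as a whole was also set out by animal, as a description with no test. The Z level of an animal, the median log2 CPM of annotated Z loci minus that of other placed annotated loci, both above a mean log2 CPM of 3, was −0.06 ± 0.05 in cyrbia at 70%, 0.22 ± 0.16 in cyrbia at 50%, 0.02 ± 0.08 in demophoon at 70% and 0.33 ± 0.08 in demophoon at 50% (SD, n = 4 each). In both subspecies every animal at 70% was below every animal at 50%, while the 2 subspecies overlapped at each stage.

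Each wing region was also fitted alone. The main wing alone gave 8 calls (of 15485 loci tested) and the anterior hindwing alone 31 (of 16457). Of the 24 summed calls, 4 were also called in the main wing (50% of the main wing calls), 17 in the anterior hindwing (54.8% of its calls), and 6 in neither. Those 6 were MSTRG.21176, MSTRG.391, MSTRG.22309, MSTRG.10901, MSTRG.15489 and MSTRG.5005. Both regions were tested for 23 of the 24, and in 23 of these the sign was the same in both. Each region is a part of the sum by which these loci were selected, so this is a description only. The same share over all loci was not counted. The 3 loci called in both regions and in the sum were MSTRG.11314 (1.72 in the main wing, 1.93 in the anterior hindwing), MSTRG.10093 (−4.17 and −4.15) and MSTRG.7066 (−1.43 and −1.48). MSTRG.21177 was called in the main wing (−6.98, SE 0.66, edgeR FDR 0.00039) and not in the anterior hindwing (−5.52, SE 1.12, edgeR FDR 0.0668), but the difference between regions had an edgeR FDR of 0.817. Of the 14 loci called in the anterior hindwing and not in the sum, 8 had a summed edgeR FDR below 0.1 and all 14 the same sign. In 2 of the 14 an animal had a count of 0 in one region and at least 50 in the other. That was so for 515 (2.82%) of all loci tested in the sum and for 0 of the 24 summed calls. Of the 4 called in the main wing and not in the sum, 2 had a summed FDR below 0.1 and 3 the same sign. The exception in sign, named after its values were seen, was MSTRG.656 on chromosome 1 (−2.83 in the main wing, edgeR FDR 0.026, and 1.14 in the sum, edgeR FDR 0.868).

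**Figure D3:**
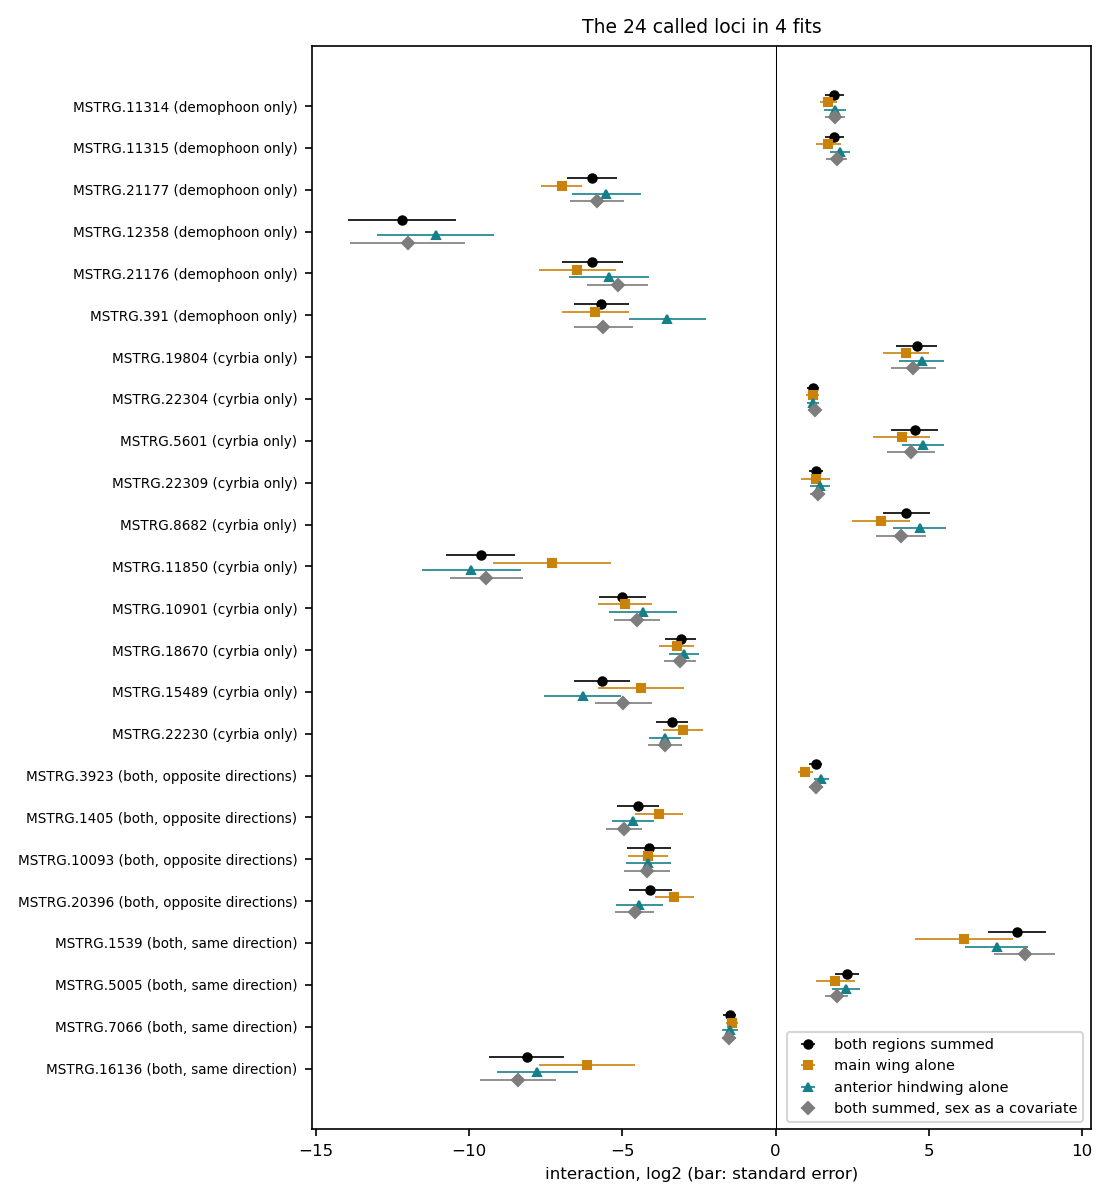
Interaction (log2, cyrbia stage change minus demophoon stage change) with its SE, derived from the F statistic, for the 24 called loci, in the summed fit, in each wing region alone and with sex as a covariate. For each locus the points lie on the same side of 0, and MSTRG.12358 was not tested in the main wing alone.

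The difference between regions was itself tested, with each animal as a block over its pair of libraries. Of 18276 loci, 3 (0.0164%) had an interaction that differed between main wing and anterior hindwing, and 1352 were below an unadjusted p of 0.05. None of the 24 summed calls was among them. MSTRG.1083 on chromosome 1 (gene model Herato0101.800) had 5.39 ± 1.75 CPM in cyrbia at 70%, 12.4 ± 5.54 CPM in cyrbia at 50%, 2.69 ± 0.196 CPM in demophoon at 70% and 13.0 ± 2.59 CPM in demophoon at 50% in the main wing. In the anterior hindwing it had 3.70 ± 0.399, 16.0 ± 6.32, 5.17 ± 1.20 and 11.4 ± 3.38 CPM in the same 4 groups (SD, n = 4 each). It fell towards 70% in every group, more in demophoon in the main wing and more in cyrbia in the anterior hindwing (main wing minus anterior hindwing 2.04, SE 0.31, edgeR FDR 0.0247). The other calls were MSTRG.13543 on chromosome 13 (−5.72, SE 0.71, edgeR FDR 0.0247) and MSTRG.1305 on chromosome 2 (−5.17, SE 0.69, edgeR FDR 0.0247). At 70% MSTRG.13543 had 262 ± 115 CPM in the cyrbia main wing and 242 ± 178 CPM in the demophoon main wing, and MSTRG.1305 had 50.5 ± 17.7 CPM and 94.9 ± 7.68 CPM in the same groups (SD, n = 4 each). In the anterior hindwing at 70%, MSTRG.13543 had 300.6 ± 149.5 CPM in cyrbia and 236.4 ± 191.7 CPM in demophoon. MSTRG.1305 had 61.35 ± 24.86 CPM and 109.9 ± 18.57 CPM there, in the same order (SD, n = 4 each). At 50% the group means of both loci were at most 0.0819 CPM in cyrbia and 0.522 CPM in demophoon in either region, so that these fitted values rest on few counts at 50%. Leaving out 1 animal gave 0 calls without animal 1, 2, 4, 8, 9, 13 or 16 (with 1132 to 1477 loci below an unadjusted p of 0.05), 1 call without animal 5, 11 or 12, and 2 to 4 calls otherwise, and limma-voom gave 0 calls with 1685 loci below that p. The 1 call without animal 5, 11 or 12 was in each case of another locus. All 3 loci stayed called without animal 10 or 15, 2 of them without animal 6, 7 or 14, and 1 without animal 3. With limma-voom the values were 2.11 for MSTRG.1083, −3.25 for MSTRG.1305 and −2.42 for MSTRG.13543 (FDR 0.251, 0.442 and 0.816 in that order).

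The number of interaction calls moved with single animals. Leaving out each animal in turn gave 6 to 48 calls. It fell to 6 without animal 7 and 7 without animal 6 (both demophoon at 50%), to 8 without animal 11 and 14 without animal 10 (cyrbia at 70%), and to 11 without animal 13 (demophoon at 70%), and was 48 without animal 16 (demophoon at 70%), of which 24 were those of the full set. Animal 6 had the shallowest main wing library, and animal 9 the next. Without both, an alternative chosen after seeing the data, 9 loci were called, 5 of them among the 24. The loci MSTRG.21177, MSTRG.11850, MSTRG.19804, MSTRG.1539 and MSTRG.7066 were called in all 16 fits without 1 animal. All 24 kept their sign in every one of these fits. The fits reuse most of the values by which the loci were selected, so a kept sign is a description only. None of the 24 was called under every other alternative tried. Of them, 19 of the 23 tested there lost the call in the main wing alone, 19 without animals 6 and 9, 12 with sex as a covariate, 10 with limma-voom, 7 in the anterior hindwing alone, 5 with thinned libraries and 2 with no filter on low counts.

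**Figure D4:**
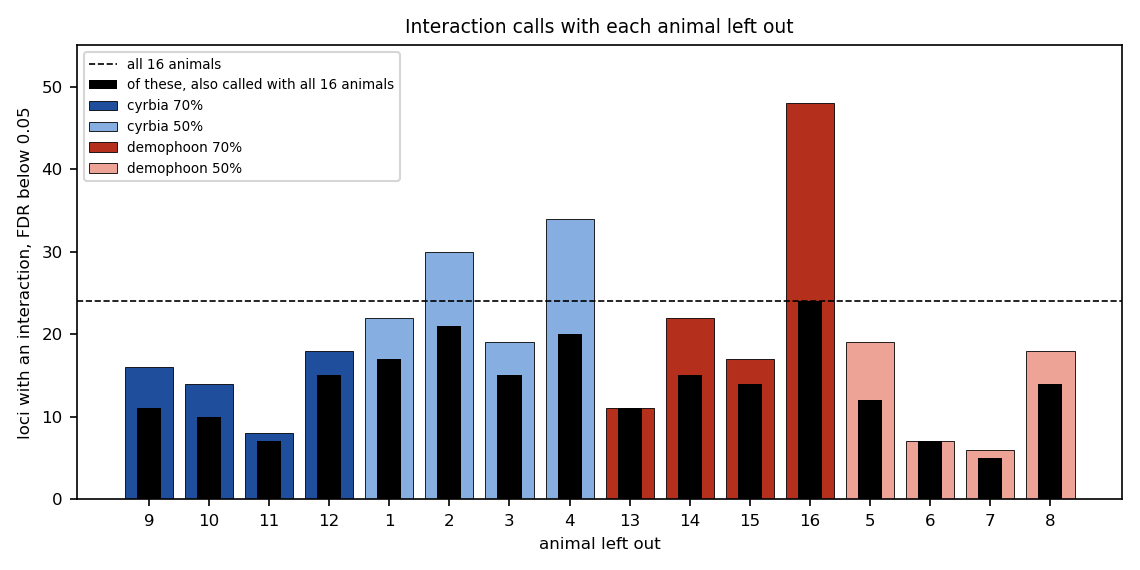
Number of loci with an interaction at FDR below 0.05 (y axis) with each animal left out (x axis), coloured by group; black bars count those also called with all 16 animals, and the dashed line marks the 24 calls of the full set. The counts run from 6 without animal 7 to 48 without animal 16.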

How the data were processed

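Raw counts per locus of all 32 libraries stood in 1 table deposited by the authors. Such counts are estimated by StringTie from read coverage. Per the submitters' processing notes, reads were trimmed with Trimmomatic (v. 0.38), aligned with HISAT2 (v. 2.1.0), handled with SAMtools (v. 1.9) and assembled and counted with StringTie (v. 1.3.5). The sources used here do not state the genome build or whether counting used strand, and the library kit was TruSeq v2, so that reads of overlapping loci on opposite strands may be mixed. Library totals ran from 9330883 to 68986011 counts. Of 24118 loci, 0 matched the 14137 genes of a RefSeq table for another assembly (Hedem_Duke_1.1). Chromosomes were read from the scaffold part of the gene model IDs, and unannotated loci were placed between annotated neighbours.

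Both libraries of each animal were summed. Group means of the 16 animals were fitted once with edgeR (v. 4.0.16; R v. 4.3.3) using TMM, filterByExpr and the robust quasi-likelihood F test, with Benjamini-Hochberg adjustment over all loci tested. The test across regions used the same edgeR method on the unsummed libraries, with the animal as a factor. Alternatives were RLE size factors, DESeq2 (v. 1.42.0), limma-voom (v. 3.58.1) with the animal as a random effect, other filters, sex as a covariate, single regions, thinned libraries and each animal left out. The scripts were tested on simulated data. The naming rule took, in each class of stage change, the 2 positive and 2 negative interaction loci with the smallest FDR (ties by the larger interaction), and added MSTRG.21985, named in the study's text. The comparison, classes and lists were chosen with earlier results of these data known. Replicates were separate animals by their labelled IDs. No group shared a replicate number with another. Counting intervals and limits cover counting error only.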

Additional observations from a re-analysis of the deposited data

Results flagged for a closer look

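The interaction itself is a difference between 2 groups' effects, and the loci named by rule are listed here with their log2 values. They were 1.92 for MSTRG.11314, 1.92 for MSTRG.11315, −5.99 for MSTRG.21177, −12.19 for MSTRG.12358, 4.60 for MSTRG.19804, 1.23 for MSTRG.22304, −9.62 for MSTRG.11850, −5.66 for MSTRG.15489, 1.30 for MSTRG.3923, −4.48 for MSTRG.1405, −4.13 for MSTRG.10093, 7.86 for MSTRG.1539, 2.32 for MSTRG.5005, −1.50 for MSTRG.7066 and −8.11 for MSTRG.16136, each with an edgeR FDR below 0.05. Between wing regions the interaction differed by −5.72 for MSTRG.13543, −5.17 for MSTRG.1305 and 2.04 for MSTRG.1083 (main wing minus anterior hindwing).

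In 5 of 64 groups of 4 animals (16 named loci in 4 groups), 1 animal stood apart from the other 3 by Dixon's criterion, and chance alone gives about 1 in 20 groups. The 64 include groups with a count of 0 in all 4 animals, where no animal could stand apart. These were demophoon at 50% for MSTRG.12358 and MSTRG.11850, cyrbia at 50% for MSTRG.1539 and cyrbia at 70% for MSTRG.16136. Animal 3 had 0.111 CPM of MSTRG.12358, the lowest of cyrbia at 50%. Animal 16 had the highest level of demophoon at 70% for MSTRG.3923 (15.5 CPM) and for MSTRG.7066 (66.5 CPM). Animal 13 had 0.0964 CPM of MSTRG.16136, the lowest of demophoon at 70%. Without these animals the interactions stayed called (edgeR FDR 0.0136 to 0.0482). Animal 2 had 7.78 CPM of MSTRG.21985, the highest of cyrbia at 50%, and without it the interaction of that locus was 0.04 in place of −0.12, not called in either fit.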

How the results depend on the processing

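The 24 interaction calls kept their sign in every alternative that tested them, but none was called under all of them, and of 670 refits of a called locus 240 lost the call. The refits reuse the values by which the loci were selected, so the kept sign is a description only. DESeq2 gave 596 calls (24 of them shared), limma-voom 117 (14 shared), sex as a covariate 15 (12 shared), the main wing alone 8 (4 shared), and, chosen after seeing the data, leaving out the 2 animals with the shallowest main wing library 9 (5 shared). RLE size factors, no filter, a stricter filter, no robust dispersion, thinning, dropping loci that switched between regions and the anterior hindwing alone gave 20 to 31. Of the 596 DESeq2 calls, 12.9% were among those of limma-voom, and 18.5% had a group at 0 counts in all animals, as did 20.8% of the edgeR calls and 5.67% of the loci tested. Positive calls were 41.7% of the 24, 57.3% with limma-voom, 20% with sex and 12.5% in the main wing alone. The subspecies difference at 50% gave 4211 calls with DESeq2, 1558 with the stricter filter and 1500 in the main wing alone, against 2424. At 70% it gave 4091 with DESeq2, 1313 with sex and 1420 in the main wing alone, against 2379. The test across regions gave 0 calls with limma-voom, where 1685 loci were below an unadjusted p of 0.05, against 3. The causes were not tested. Leaving out 1 animal gave 6 to 48 interaction calls, 3924 to 4728 stage calls in cyrbia, 3824 to 5133 in demophoon, 1729 to 2496 subspecies calls at 50%, 1520 to 2668 at 70% (1520 without animal 15 and 1582 without animal 13) and 0 to 4 across regions. The median interaction of Z loci minus that of other placed loci was 0.05, and 0.0027 to 0.10 in its alternatives. Each alternative moved it by less than 0.1023, the pooled SD of the Z level over animals within groups. That SD does not measure the spread of this difference of medians. No paired analysis was possible because no replicate number is shared between the 4 groups, and only the 2 wing regions of an animal could be paired, as in the test across regions.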

Other observations

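The unannotated locus MSTRG.14928, singled out after its values were seen, had 72.4 to 111 CPM in the 6 demophoon females, and 0.103 and 0 CPM in the demophoon males. In all 8 cyrbia animals it had at most 0.0855 CPM, the 2 labelled females included, so that it could not be used to check the labelled sex in cyrbia.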
